A study of Homo sapiens with 9 samples.

Results

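The genes described here are 10 that encode A-kinase anchoring proteins, protein kinase A (PKA) subunits and a cAMP phosphodiesterase. They were taken by symbol from the 60325 gene rows of the count files: the anchoring proteins AKAP12, AKAP1, AKAP9 and AKAP13, the catalytic subunits PRKACA and PRKACB, the regulatory subunits PRKAR1A, PRKAR2A and PRKAR2B, and the phosphodiesterase PDE4D. All 10 were found and all 10 passed the filter on low counts. AKAP12 was put forward because it stood high in the rescue libraries against the knockdown-labelled ones, so the members' values in that comparison are given as a description without a p-value. The other 9 were joined to it by function, with earlier results of these data known.

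RNA was sequenced from LAPC4, an androgen-responsive human prostate cancer line, in 9 libraries of 3 groups, all taken at day 30. Control cells have the genotype Control and the title NT. Knockdown-labelled cells have the genotype UGT2B28 knockdown (title KD4), after an enzyme that attaches glucuronic acid to steroids, and were selected with 3 ug/mL puromycin. Rescue cells have the genotype UGT2B28 rescue (title KD4OE) and were selected with 1 mg/mL G418. The base medium with 15% serum was common to all. No drug is given for the controls, so drug and construct cannot be told apart, and a single knockdown line (KD4) is named. Separate cultures are not stated for the replicates, and each p-value therefore reflects spread among these libraries alone, possibly technical.

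cAMP made by adenylyl cyclases binds the regulatory subunits of PKA and frees the catalytic subunits, which phosphorylate serine and threonine residues. Anchoring proteins hold the kinase near its substrates by binding the regulatory dimer, and phosphodiesterases bound to the same scaffolds remove cAMP locally. In prostate epithelium the pathway is known for its crosstalk with androgen receptor signalling and for neuroendocrine-like changes when cAMP stays high.

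The labels were checked on UGT2B28 first. Control libraries held 44, 50 and 76 of its counts, those under the knockdown label 63, 70 and 28, and rescue 1139, 1062 and 539. Its mRNA was thus not shown to be lower under the knockdown label (log2 fold change -0.04, 95% confidence interval -0.81 to 0.72), and directions below are those of libraries so labelled. The value was 0.25 without knockdown-labelled replicate 3 (edgeR adjusted p = 0.512) and -1.01 without replicates 1 and 2 (adjusted p = 0.134). Library totals ran from 8132206 to 14185252 gene counts. Knockdown-labelled libraries 1 and 2 resembled each other (chi-square per degree of freedom 3.56), and library 3 stood apart from them (69.6 and 74.7). All 15 luminal prostate markers in the files had counts in LAPC4 and summed to 4212 to 7163 counts per 1000000 (CPM), whereas the 10 leukocyte markers summed to 4.35 to 11.98 CPM, with PTPRC, MS4A1 and LYZ at 0 in every library.

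In control cells the members spanned a wide range of levels. Levels are compared between genes as CPM scaled by TMM factors and divided by kilobases of annotated exon, which understates genes with many alternative exons such as PDE4D and AKAP13. AKAP1, which tethers PKA to the outer mitochondrial membrane, was highest at 28.6 ± 1.90 CPM per kb (SD, n = 3). PRKAR1A (14.0 ± 1.84), PRKAR2A (12.8 ± 0.251) and PRKACA (9.34 ± 0.250) followed, then AKAP9 (3.98 ± 0.508). PRKACB (2.00 ± 0.369), PDE4D (1.93 ± 0.148) and AKAP13 (1.84 ± 0.140) came next, AKAP12 lay at 0.951 ± 0.501 and PRKAR2B was lowest at 0.330 ± 0.0390. PRKAR1A and PRKAR2A overlapped over the control libraries, as did PRKACB, PDE4D and AKAP13 among themselves. The other neighbours in this order did not overlap.

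**Figure D1:**
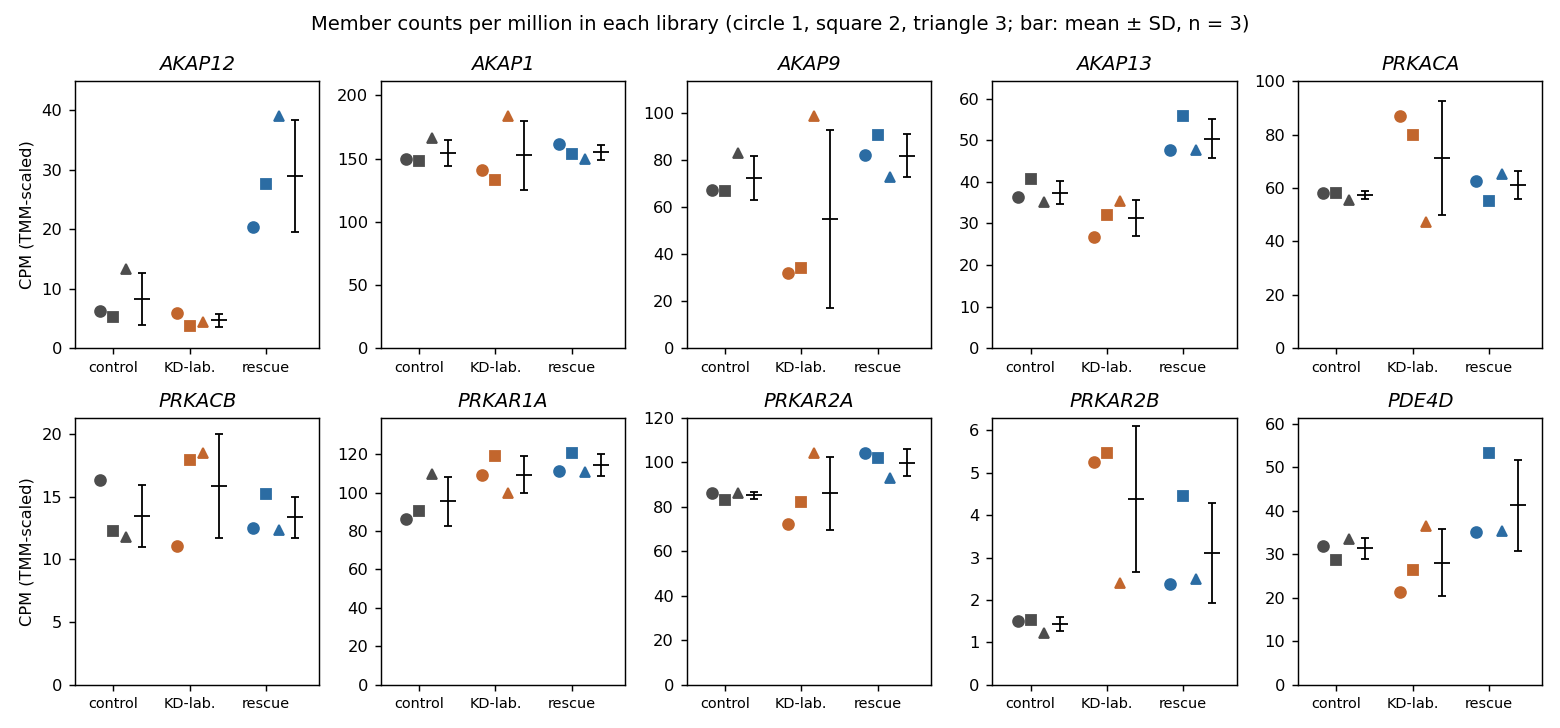
CPM (TMM-scaled, linear axis from 0) of the 10 genes in each of the 9 libraries; circle, square and triangle are replicates 1, 2 and 3, and the bar is the group mean ± SD (n = 3). AKAP12 lies at 20.4 to 39.0 CPM in rescue and at 3.80 to 13.3 CPM in the other libraries.

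AKAP12 encodes a large scaffold at the plasma membrane (gravin) that binds PKA, protein kinase C and the beta-2 adrenergic receptor. It occupies bases 151239999 to 151358557 of chromosome 6, plus strand, in GRCh38 (GENCODE 29). No other annotated gene shares its exons, and none of its 8638 stretches of 100 bases occurs in another gene's transcript. AKAP12 had 54, 52 and 130 counts in control libraries 1 to 3, which is 6.29, 5.31 and 13.3 CPM. Under the knockdown label there were 44, 43 and 40 counts (5.92, 3.80 and 4.35 CPM), and in rescue 309, 315 and 393 counts (20.4, 27.5 and 39.0 CPM). Every rescue library lay above every other library, while control and knockdown-labelled libraries overlapped. Control library 3 was the highest of those 6.

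The log2 fold change of AKAP12 was 2.64 for rescue against knockdown-labelled libraries (SE 0.370). This is the value that chose the gene. It ranked 23 among the 745 genes past the threshold and higher there, with SPATC1 just below at 2.58. Over 19 alternatives in processing and libraries the value ran from 2.38 to 2.89. Against control, with the same rescue libraries, AKAP12 stood at 1.79 (SE 0.349, 95% confidence interval 1.02 to 2.56), and at 2.32 without control replicate 3. It did not pass over all genes (edgeR adjusted p = 0.0752, and 1.75e-11 to 0.426 over the alternatives, of which 5 of 19 passed). Knockdown-labelled against control, AKAP12 had a log2 fold change of -0.84 (SE 0.380, 95% confidence interval -1.68 to -0.01, adjusted p = 0.259), which shrank to -0.32 without control replicate 3. AKAP12 was chosen for its values in these same rescue and knockdown-labelled libraries, so neither p-value can be taken as a test of it.

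Stromal markers varied beside AKAP12. The 12 of them summed to 30.6, 27.2 and 77.1 CPM in control libraries 1 to 3, to 50.3, 43.2 and 49.9 CPM under the knockdown label, and in rescue to 44.8, 64.4 and 130 CPM. All 12 had a count in some library, 6 of them averaged at least 1 CPM, and COL1A1 made up the largest part. Control library 3 and rescue library 3 were highest in their groups for both AKAP12 and this sum. Not every marker followed the sum. LUM was highest of the rescue libraries in library 1, and MYH11 was lowest of the controls in library 3. The part of stromal transcripts in the AKAP12 values was not tested. In bulk RNA more cells with a transcript and more transcript per cell cannot be told apart.

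AKAP12 counts pool transcripts from several starts, so the sequence before each start is shown to mark what the gene-level count cannot separate. RefSeq (GRCh38.p14) lists 3 starts for the gene, and the 150 bases before each are printed 5' to 3' on the plus strand, with CG dinucleotides, the sites of DNA methylation, in capitals.
AKAP12 start at chr6:151239817-151239966: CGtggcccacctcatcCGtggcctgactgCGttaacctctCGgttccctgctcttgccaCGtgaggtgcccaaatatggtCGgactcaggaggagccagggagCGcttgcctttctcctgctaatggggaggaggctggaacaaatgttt
AKAP12 start at chr6:151325381-151325530: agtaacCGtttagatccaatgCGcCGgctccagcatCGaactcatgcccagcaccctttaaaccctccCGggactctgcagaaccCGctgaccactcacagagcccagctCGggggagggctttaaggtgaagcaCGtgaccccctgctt
AKAP12 start at chr6:151341556-151341705: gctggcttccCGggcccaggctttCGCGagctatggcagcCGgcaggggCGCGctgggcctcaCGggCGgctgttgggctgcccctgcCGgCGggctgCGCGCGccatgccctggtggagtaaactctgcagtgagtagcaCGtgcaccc
These stretches hold 7, 8 and 14 CG dinucleotides. In the full windows of 300 bases (250 before to 50 after the start) the numbers were 15, 14 and 32, against a median of 14 over 35116 RefSeq windows. Methylation was not analysed here.

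The promoter windows of all 10 members were also searched on both strands for the cAMP response element, the site bound by CREB, as the full palindrome TGACGTCA and as its half-site TGACG, which every full site contains. The full site was in 2 of 32 member windows, both of PRKAR1A and both holding the same site, against 1.85% of all windows. The half-site was in 13 of 32 member windows, against 24.6% of all windows. Those 13 came from 7 of the 10 genes, and no share of all genes was computed to set beside this. A gene with several windows has more places to hold a half-site. Some windows of AKAP1 and of PRKAR1A overlap, so 1 half-site can be counted in more than 1 window. No window of AKAP12, AKAP13 or PRKAR2B held either, which says only that these letters are not in those windows. The 30 bases around the PRKAR1A site are shown with the site in capitals.
PRKAR1A at chr17:68512370-68512399: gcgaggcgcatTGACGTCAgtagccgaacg

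Among the other scaffolds AKAP13 was highest in rescue, AKAP1 was level, and AKAP9 differed between knockdown-labelled libraries. AKAP13, a scaffold that also activates the GTPase RHOA, lay at 36.4, 40.6 and 35.2 CPM in control, 26.8, 32.0 and 35.4 CPM in knockdown-labelled and 47.6, 55.9 and 47.8 CPM in rescue libraries. The rescue libraries were above all 6 others, and the other groups overlapped. Its log2 fold change was 0.68 for rescue against knockdown-labelled libraries (SE 0.137) and 0.43 for rescue against control (SE 0.136, edgeR adjusted p = 0.274). The latter passed in 3 of 19 alternatives, with adjusted p from 0.0237 to 0.723. Of the exon bases of AKAP13, 9.61% also belong to other annotated genes, nearly all on the opposite strand.

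AKAP1 lay at 150, 148 and 166 CPM in control, 141, 133 and 184 CPM in knockdown-labelled and 162, 154 and 150 CPM in rescue libraries. Its groups overlapped throughout. The log2 fold change of rescue against control was 0.00 with a 95% confidence interval of -0.30 to 0.31. AKAP9, a scaffold of the centrosome and Golgi, lay at 67.2, 67.0 and 83.1 CPM in control, 32.0, 34.2 and 98.8 CPM in knockdown-labelled and 82.2, 90.8 and 72.6 CPM in rescue libraries. Knockdown-labelled libraries 1 and 2 were the lowest of the 9 and library 3 the highest. AKAP9 did not pass knockdown-labelled against control (log2 fold change -0.40, SE 0.353, edgeR adjusted p = 0.588). The value was -1.12 without knockdown-labelled replicate 3 (adjusted p = 2.45e-06) and 0.42 without replicates 1 and 2 (adjusted p = 0.0795).

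**Figure D2:**
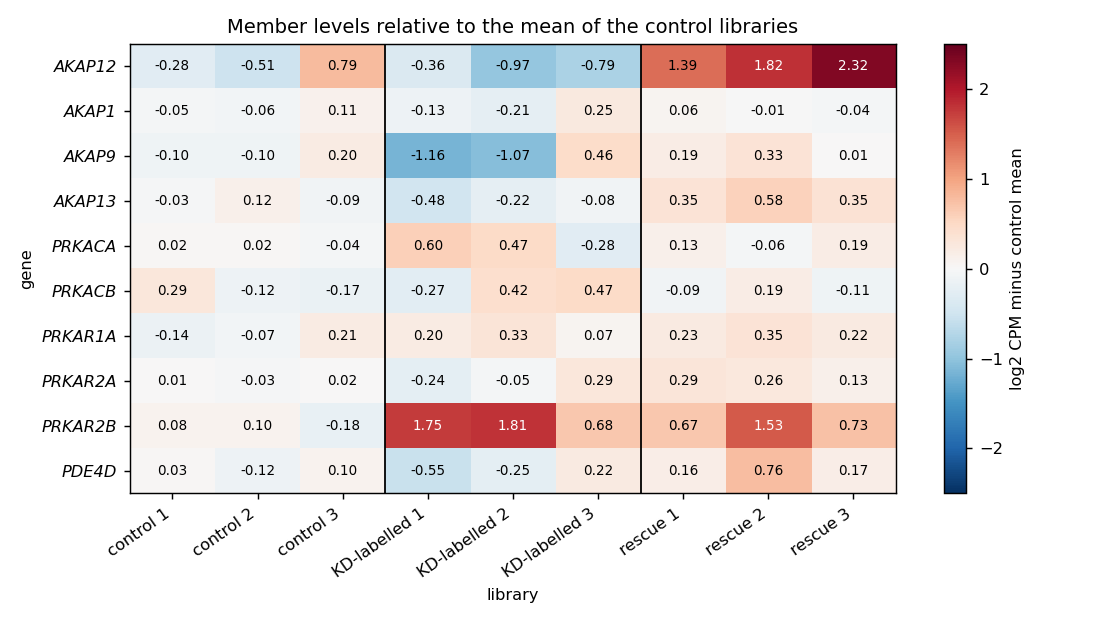
Log2 CPM of each gene (rows) in each library (columns) minus the mean of the 3 control libraries; red is higher and blue lower. AKAP9 and PRKACA change sign between knockdown-labelled libraries 1 and 2 and library 3, while AKAP12 is above the control mean by 1.39 to 2.32 in rescue.

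The catalytic subunits did not separate the groups. PRKACA, the more abundant of them, lay at 58.3, 58.2 and 55.6 CPM in control, 87.1, 79.8 and 47.1 CPM in knockdown-labelled and 62.7, 55.1 and 65.3 CPM in rescue libraries. As with AKAP9, the extremes of all 9 libraries in TMM-scaled CPM were knockdown-labelled, here with libraries 1 and 2 on top. The TMM factors were 0.793 and 0.800 for knockdown-labelled libraries 1 and 2, 1.11 for library 3 and 1.03 to 1.09 in control and rescue. For PRKACA the place of library 2 depends on this scaling. Knockdown-labelled against control, the log2 fold change of PRKACA was 0.31 (SE 0.193, edgeR adjusted p = 0.412). It was 0.54 without knockdown-labelled replicate 3 (adjusted p = 0.000453) and -0.31 without replicates 1 and 2 (adjusted p = 0.17). PRKACB lay between 11.04 and 18.5 CPM in all libraries, with overlapping groups, and had -0.01 for rescue against control (95% confidence interval -0.50 to 0.48).

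Among the regulatory subunits PRKAR2B, the scarce type II beta form, was higher under both other labels than in control, but did not pass. It had 13, 15 and 12 counts in control, 39, 62 and 22 in knockdown-labelled and 36, 51 and 25 in rescue libraries. In CPM this was 1.51, 1.53 and 1.23, then 5.25, 5.47 and 2.39, then 2.37, 4.46 and 2.48. Every control library was below every other library, and knockdown-labelled and rescue libraries overlapped. The log2 fold change against control was 1.61 for knockdown-labelled (SE 0.424, 95% confidence interval 0.68 to 2.54, edgeR adjusted p = 0.0993) and 1.11 for rescue (SE 0.424, adjusted p = 0.375). Both use the same controls. The first passed in 3 of 19 alternatives, with adjusted p from 0.000958 to 0.441. It was 1.91 without knockdown-labelled replicate 3 and 0.72 without replicates 1 and 2. These values rest on 12 to 62 counts per library, and the part of counting error in them was not tested.

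PRKAR1A, the type I alpha subunit, lay at 86.0, 90.4 and 110 CPM in control, 109, 119 and 99.8 CPM in knockdown-labelled and 111, 121 and 111 CPM in rescue libraries. PRKAR2A, the type II alpha subunit, lay at 86.0, 83.3 and 86.3 CPM in control, 72.3, 82.0 and 104 CPM in knockdown-labelled and 104, 102 and 93.0 CPM in rescue libraries. For both, the rescue libraries were above the controls without overlap, by a log2 fold change of 0.26 for PRKAR1A (SE 0.126, edgeR adjusted p = 0.503) and 0.23 for PRKAR2A (SE 0.137, adjusted p = 0.618). Neither passed in any of the 19 alternatives.

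PDE4D, which hydrolyses cAMP and is found on several of these scaffolds, lay at 31.9, 28.8 and 33.5 CPM in control, 21.4, 26.3 and 36.5 CPM in knockdown-labelled and 35.1, 53.4 and 35.3 CPM in rescue libraries. Rescue library 2 was the highest of all. Rescue and control did not overlap, but PDE4D did not pass (log2 fold change 0.39, SE 0.214, edgeR adjusted p = 0.569), and knockdown-labelled library 3 lay inside the rescue range.

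**Figure D3:**
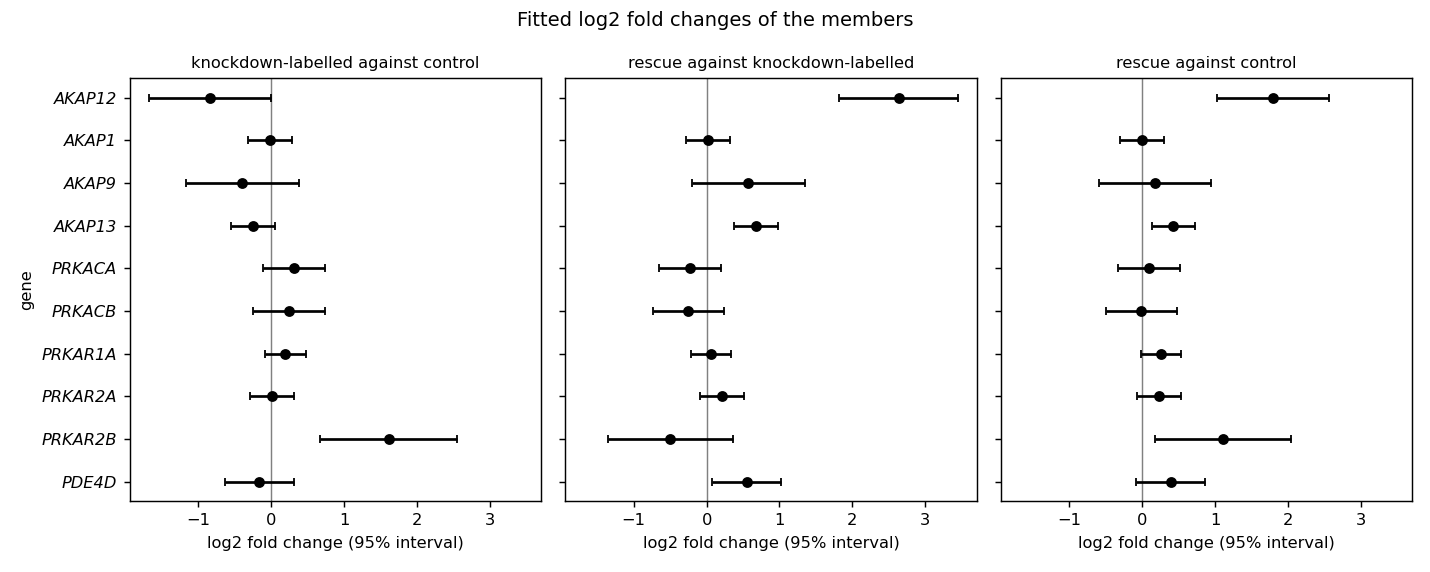
Fitted log2 fold changes (points) with 95% confidence intervals (bars) of the 10 genes in the 3 comparisons, from edgeR on all 9 libraries. AKAP12 is at 2.64 and 1.79 in the comparisons with rescue, and PRKAR2B at 1.61 in knockdown-labelled against control.

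Counted together, the members gave few calls. Knockdown-labelled against control, 0 of 10 passed, where 0.00595% of the 16796 genes tested did. At an unadjusted p under 0.05 there were 2 of 10, or 1 of 9 without AKAP12, where 19.1% of all genes were. DESeq2 called 1 of 10 and 6.01% of all genes, and limma-voom called 0. The groups did not overlap for 1 of 10, PRKAR2B, which was higher, against 21.2% of all genes and 11% as higher. The median log2 fold change was 0.00 for the members and 0.02 for all genes. Rescue against control, again 0 of 10 passed, where 0.149% of all genes did. At an unadjusted p under 0.05 there were 3 of 10, or 2 of 9 without AKAP12, where 10.5% of all genes were. DESeq2 called 1 of 10, AKAP12 itself, and 1.94% of all genes, and limma-voom called 0. The groups did not overlap for 6 of 10, or 5 of 9 without AKAP12, all higher in rescue, where 26.4% of all genes did not overlap and 12.8% were higher without overlap. The median was 0.24 for the members, 0.23 without AKAP12 and -0.01 for all genes. Rescue against knockdown-labelled, the comparison that chose AKAP12, 2 of 10 lay past the threshold, AKAP12 and AKAP13, where 9.83% of all genes did. For AKAP12 this is the choice itself, and AKAP13 was joined to it with earlier results known. Neither is a test. In that comparison the groups did not overlap for these 2, both higher, where 28.6% of all genes did not and 14.6% were higher without overlap. Nothing is read from that comparison's count. The 3 comparisons share libraries pairwise, so their counts are not separate evidence.

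Knockdown-labelled libraries 1 and 2 lay on the other side of the control mean from library 3 for 5 of 10 members, against 42.5% of all genes. Without knockdown-labelled replicate 3 the members that passed numbered 4, 6 and 2 in knockdown-labelled against control, rescue against knockdown-labelled and rescue against control, where 32.9%, 39% and 7.38% of all genes passed. Without replicates 1 and 2 they numbered 0, 2 and 2, where 11.4%, 19.5% and 5.27% of all genes passed. Mitochondrial transcripts also set libraries 1 and 2 apart, with 15.1% and 15.8% of gene counts, from library 3 with 10.2% and from control and rescue with 5.79% to 8.57%. Their part in the members' values was not tested.

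Shares within a library do not depend on how libraries are scaled. Per kilobase, AKAP12 made up 2.12%, 1.80% and 3.95% of the 4 anchoring proteins in control, 2.27%, 1.52% and 1.19% in knockdown-labelled and 5.96%, 8.005% and 11.6% in rescue libraries. PRKAR2B made up 1.35%, 1.36% and 0.971% of the 3 regulatory subunits in control, 4.33%, 4.08% and 1.80% in knockdown-labelled and 1.69%, 3.03% and 1.87% in rescue. PRKAR2B was thus a small part of the regulatory transcripts in every library, and the controls were lowest. The catalytic subunits made up 26.9% to 31.5% of all 5 PKA subunit transcripts in control and 24.8% to 28.8% in rescue, which overlap. In knockdown-labelled libraries the share was 36.0%, 33.5% and 25.2%, with library 3 again on the other side of the controls. An exact permutation test of 3 against 3 libraries cannot go below p = 0.1, so these shares are given without a test.

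**Figure D4:**
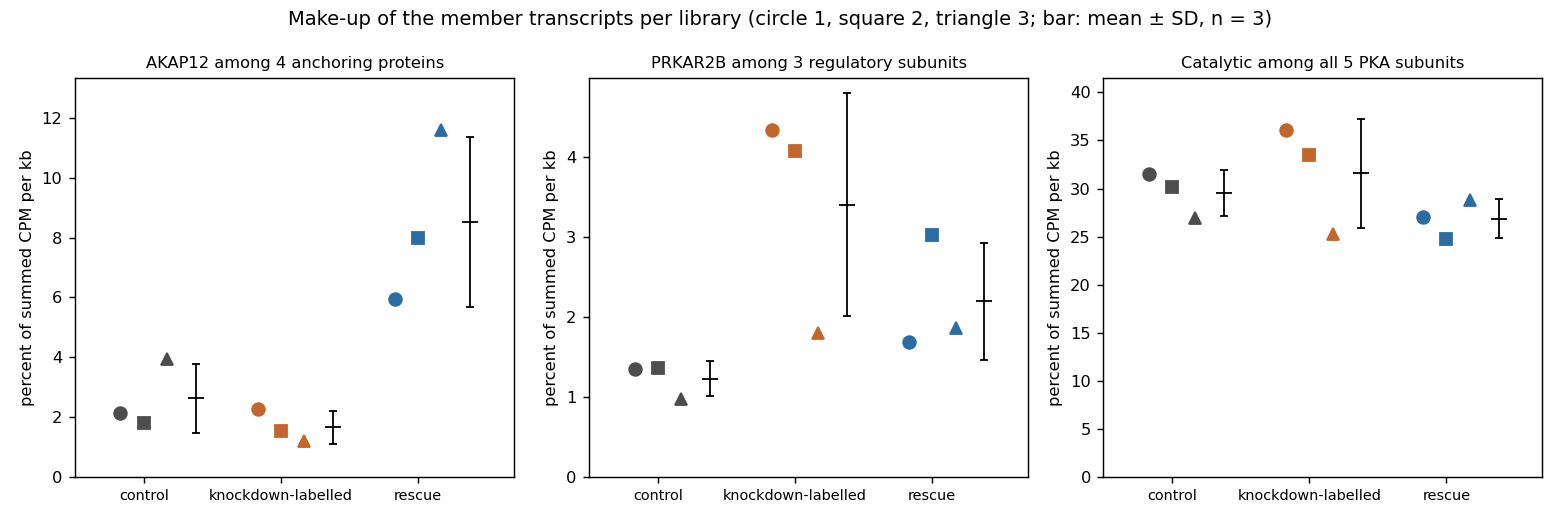
Share (percent of summed CPM per kb) of AKAP12 among the 4 anchoring proteins, of PRKAR2B among the 3 regulatory subunits and of catalytic among all 5 PKA subunits, per library, with the group mean ± SD (n = 3). The AKAP12 share is 5.96% to 11.6% in rescue and at most 3.95% elsewhere.

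The wider pathway was described with 9 lists, which hold 151 symbols beside the members, 98 of them tested. The lists were chosen by function, but with earlier results of these data known, so their counts are a description and no test. In rescue against knockdown-labelled libraries 12 rose and 5 fell, where 4.44% of all genes passed as higher and 5.39% as lower. The median log2 fold change was 0.14 for the lists and 0.00 for all genes. Rescue against control, 1 of 98 passed in edgeR, 9 by DESeq2 and 0 by limma-voom, and 19 had an unadjusted p under 0.05, where 10.5% of all genes did. Knockdown-labelled against control, 0 of 98 passed in edgeR, 6 by DESeq2 and 0 by limma-voom, and 19 had an unadjusted p under 0.05, where 19.1% of all genes did. The 17 calls became 0 when only those 2 groups were fitted, 4 with the replicate number as a block and 2 to 46 when 1 library was left out, with the top of that range without knockdown-labelled replicate 3. The calls named below differed in how often they passed over the 19 alternatives. ADCY6 passed in 18, PDE10A in 17, SRC in 14, NR4A1 in 13, PTGER4 in 12, PPP2CA in 11 and FOSB in 10. EZR and MC1R passed in 9, CGA in 8, PKIB and ADCY2 in 7, GNAL, ACBD3 and SIK3 in 6, and ADCY5 in 5.

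Genes of the adenylyl cyclases and their G protein alpha subunits gave calls in both directions. Of 12 tested adenylyl cyclases and G protein alpha subunits, 2 rose and 2 fell in rescue against knockdown-labelled libraries. Of all genes 4.44% passed as higher there and 5.39% as lower. ADCY6, an adenylyl cyclase inhibited by calcium, was at 131, 118 and 108 CPM in control, 77.8, 87.2 and 77.0 CPM in knockdown-labelled and 133, 138 and 140 CPM in rescue libraries (log2 fold change 0.76, SE 0.115, edgeR adjusted p = 0.00866). ADCY6 was lowest under the knockdown label without overlap. ADCY2 rose by 0.80 on the log2 scale. GNAL, a stimulatory alpha subunit, had -0.66, although 28.1% of its exon bases belong to other genes as well. The fourth call, ADCY5 at -1.37 (edgeR adjusted p = 0.0496), falls outside the rule for named genes and was chosen after its value was seen. It was the only cyclase call that fell, and it lay close to the threshold. GNAS, the main stimulatory alpha subunit and the gene with the highest level per length in this list, was at 2098 to 2707 CPM in knockdown-labelled libraries and at 1587 to 1833 CPM in all others, and did not pass in rescue against knockdown-labelled libraries (-0.53, edgeR adjusted p = 0.0546).

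In rescue against knockdown-labelled libraries 2 of 8 receptors, 1 of 7 phosphodiesterases and 1 of 5 PKA subunits and inhibitors passed. Of all genes 9.83% passed there, and with lists this small nothing is read from the counts. Among 8 tested Gs-coupled receptors PTGER4, the prostaglandin E2 receptor EP4, rose by 1.09 on the log2 scale (SE 0.247, edgeR adjusted p = 0.0245). Its values were 27.0, 27.0 and 14.5 CPM in knockdown-labelled and 40.9, 58.1 and 46.8 CPM in rescue libraries, beside 20.1 to 31.2 CPM in control. MC1R, the melanocortin receptor, rose by 0.77, with 44.5% of its exon bases shared with other genes. Of 7 other cAMP phosphodiesterases tested, PDE10A rose by 0.78 (SE 0.125, edgeR adjusted p = 0.00909), with 40.1 to 43.3 CPM in knockdown-labelled and 65.2 to 81.1 CPM in rescue libraries. Of 5 other PKA subunits and inhibitors PKIB, a peptide inhibitor of the catalytic subunit, fell by 1.00 on the log2 scale (SE 0.260, adjusted p = 0.0388), from 13.9, 9.18 and 12.2 CPM to 5.997, 7.43 and 4.07 CPM. The 5 other cAMP effectors tested had log2 fold changes from -0.04 to 0.74 with overlapping groups.

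Of 19 other anchoring proteins tested, 2 rose in rescue against knockdown-labelled libraries and 0 fell. Of all genes 4.44% passed as higher there and 5.39% as lower. EZR, which encodes ezrin, a linker of membrane and actin that also binds PKA, was at 484, 472 and 518 CPM in control, 454, 452 and 455 CPM in knockdown-labelled and 602, 688 and 695 CPM in rescue libraries (log2 fold change 0.54, SE 0.122, edgeR adjusted p = 0.0235). ACBD3, a Golgi protein that binds type I regulatory subunits, rose by 0.55. EZR had the highest level per length of this list, 160 CPM per kb over all libraries. Among 17 partners of the scaffolds, the tyrosine kinase gene SRC rose by 0.66, and PPP2CA, the catalytic subunit of protein phosphatase 2A, fell by 0.59.

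Downstream, 1 of 13 CREB factors, coactivators and their kinases passed, SIK3, which rose by 0.57, where 9.83% of all genes passed. Of 15 tested genes that cAMP is known to induce, 3 rose and 0 fell, where 4.44% of all genes passed as higher. The genes of this list also answer to other signals. NR4A1 and FOSB, immediate early transcription factor genes, were at 101, 357 and 158 CPM and at 8.30, 35.2 and 9.64 CPM in rescue, against 67.0, 59.7 and 36.3 CPM and 4.17, 3.35 and 3.59 CPM in knockdown-labelled libraries. Rescue library 2 was highest for both. CGA, the shared alpha subunit of glycoprotein hormones, was at 7.18, 5.51 and 3.78 CPM in rescue and at 1.35, 1.76 and 0.109 CPM in knockdown-labelled libraries. The log2 fold changes were 1.92 for NR4A1 (edgeR adjusted p = 0.0202), 2.26 for FOSB (adjusted p = 0.0271) and 2.33 for CGA (adjusted p = 0.0381). CGA was also the 1 call of rescue against control (4.87, adjusted p = 0.0449), but its control libraries held 1, 1 and 3 counts and knockdown-labelled library 3 held 1. Over the alternatives its rescue against knockdown-labelled value ran from 1.80 to 5.54. In that comparison 9 of the 15 genes were above 0, with a median of 0.41, where 49.71% of all genes were above 0. Knockdown-labelled against control, 11 of the 15 were above 0 (median 0.39), where 51.43% of all genes were. Rescue against control, 12 of the 15 were above 0 (median 0.67), where 48.99% of all genes were. The 8 neuroendocrine markers, with INSM1 at 0, summed to 18.2 to 36.8 CPM in control, 17.7 to 20.9 CPM in knockdown-labelled and 25.6 to 39.4 CPM in rescue libraries. Rescue and control overlapped.

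**Figure D5:**
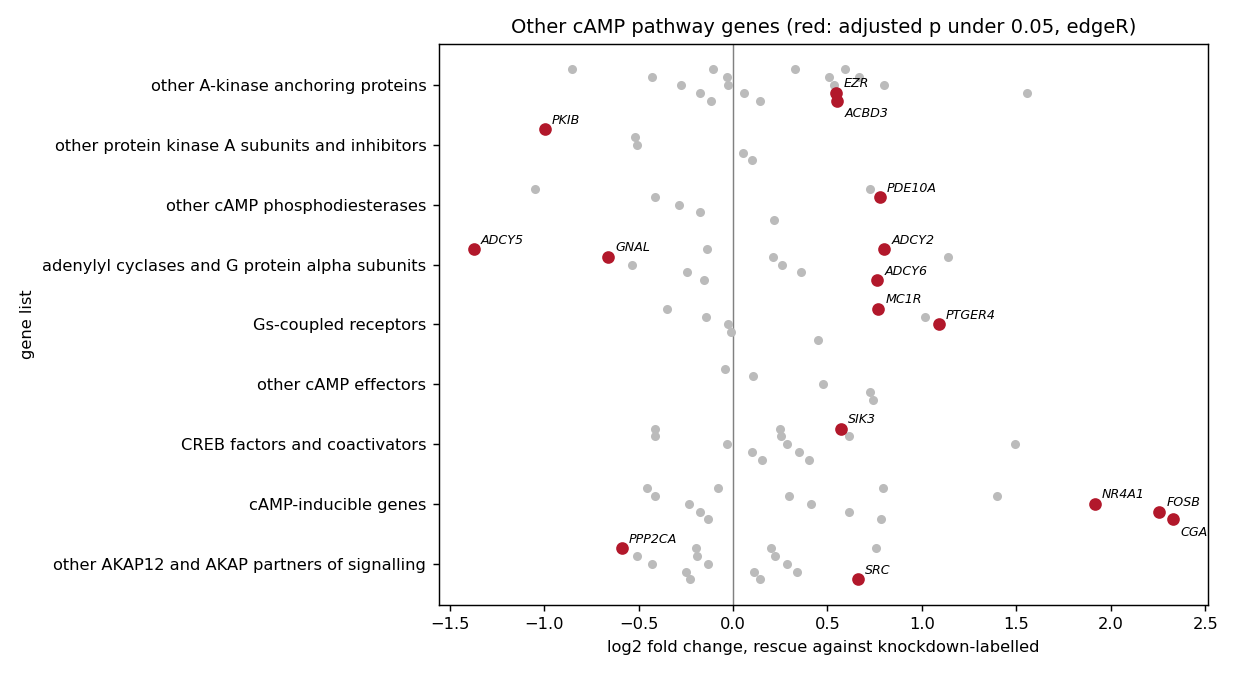
Log2 fold change, rescue against knockdown-labelled libraries, of the tested genes in the 9 lists (rows), with 1 gene left out; red points passed at an edgeR adjusted p under 0.05 and are named, grey points did not pass. The named genes lie from -1.37 (ADCY5) to 2.33 (CGA), and 12 of them are above 0.

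The pattern of AKAP12 over the 9 libraries was compared with 11557 protein-coding genes with a mean of at least 2 CPM, by Pearson's r of log2 CPM, as a description of libraries that share group and depth. Group means were kept in r, and AKAP12 was chosen for its height in rescue. Genes higher in rescue therefore rank high through that choice, and the ranks are no test. The most alike were DGKD (r = 0.986), EZR (0.972), ARF6 (0.962), PPFIA4 (0.962), MAP1B (0.962), TMEM184A (0.961), NDRG1 (0.960) and LRP1 (0.957). DGKD, a diacylglycerol kinase gene, was at 74.5, 80.5 and 92.8 CPM in control, 78.3, 73.4 and 74.1 CPM in knockdown-labelled and 102, 111 and 117 CPM in rescue libraries. In it, as in AKAP12, control library 3 and rescue library 3 were highest in their groups. Among the other members AKAP13 was most alike (r = 0.778), then PDE4D (0.627), and PRKACB was least alike (-0.408). Of the 11557 genes compared, AKAP13 ranked 481 and PDE4D 1255.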

How the data were processed

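RNA from 9 LAPC4 libraries was sequenced. The submitters' processing notes name HTSeq, STAR, cutadapt and FastQC, and the build hg38; the sources used here give no version, setting, strand use or annotation. What the authors deposited are raw read counts per gene symbol; 43.7% to 48.7% of all reads counted lay on no feature and stayed out, as did the other summary rows. Whether counting used strand is unknown, so reads of overlapping genes cannot be told apart.

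The quasi-likelihood test of edgeR 4.0.16 (R 4.3.3) was fitted to all 9 libraries at once, with TMM factors and filterByExpr set to 10 counts, with Benjamini-Hochberg adjustment over 16796 genes and a threshold of 0.05. CPM are counts per 1000000 scaled by TMM; log2 CPM used a prior count of 2. Exon lengths and positions came from GENCODE 29, promoters from RefSeq GRCh38.p14. Alternatives were DESeq2 1.42.0 size factors or Wald test, library size alone, other filters, limma-voom (limma 3.58.1), only the groups compared, a replicate block, a stricter threshold and libraries left out. No library duplicated another of its group, and pairs across groups were not checked.

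Members, lists and the left-out libraries were chosen with earlier results of these data known. Named genes were the members, the calls of each pathway list (the 3 smallest p where over 3), each list's highest gene per length, and the 8 genes most like AKAP12. The genes with the highest level per length in the other lists were PRKX, PDE7A, PTGER4, HCN3, CREB3, RGS2 and RHOA. A further call among the scaffold partners, counted in the totals, is not reported here.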

Additional observations from a re-analysis of the deposited data

How the results depend on the processing

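Of 380 recomputed values for the members in the comparisons with control, 346 kept their direction and their side of the threshold, 15 newly passed and 19 changed sign without passing. With library size alone the median of all genes moved to -0.21 in knockdown-labelled against control and to 0.24 in rescue against knockdown-labelled, PRKAR1A and PRKAR2A knockdown-labelled against control became -0.039 and -0.17, and PRKACB rescue against control 0.016; PRKACA rescue against knockdown-labelled went from -0.22 to 0.08. Passing in rescue against knockdown-labelled then split into 1327 higher of 1557, against 745 of 1651. Without knockdown-labelled replicates 1 and 2, knockdown-labelled against control gave 0.22 for AKAP1, 0.42 for AKAP9, -0.31 for PRKACA, 0.19 for PDE4D and, with no change of sign, -1.01 for UGT2B28 (adjusted p = 0.134). Rescue against control, AKAP1 was -0.0053 with no filter and PRKACB 0.0035 by limma-voom. Leaving out 1 library gave -0.18 to 0.071 for AKAP1, -0.14 to 0.13 for PRKAR2A and -0.36 to 0.25 for UGT2B28 knockdown-labelled against control, and -0.030 to 0.057 for AKAP1 and -0.11 to 0.15 for PRKACB rescue against control.

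Counts that passed are given as all genes, members and pathway genes. Knockdown-labelled against control had 1, 0 and 0. These became 153, 0 and 1 with library size alone, 1045, 2 and 7 with no filter, 1009, 1 and 6 by DESeq2, and 2115, 0 and 9 without knockdown-labelled replicates 1 and 2. All genes were 0 with only the 2 groups or the replicate block. With 1 library left out the ranges were 0 to 5691, 0 to 4 and 0 to 31. Rescue against knockdown-labelled had 1651, 2 and 17. These became 2636, 4 and 26 with no filter, 2702, 2 and 22 by DESeq2, 7, 1 and 0 with only the 2 groups, 442, 2 and 4 with the replicate block, 162, 1 and 2 at an adjusted p under 0.01, and 3619, 2 and 25 without knockdown-labelled replicates 1 and 2. The ranges with 1 library left out were 134 to 6745, 1 to 6 and 2 to 46. Rescue against control had 25, 0 and 1. These became 21, 0 and 2 with library size alone, 401, 1 and 12 with no filter, 326, 1 and 9 by DESeq2, 13, 0 and 0 by limma-voom, 962, 2 and 16 with only the 2 groups, 4, 0 and 0 with the replicate block, 3, 0 and 0 at an adjusted p under 0.01, and 977, 2 and 16 without knockdown-labelled replicates 1 and 2. The ranges with 1 library left out were 1 to 1276, 0 to 2 and 0 to 18. The highest value of each range came without knockdown-labelled replicate 3; the 134 came without rescue replicate 1. The cause of these changes was not tested.

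No pairing by replicate number was seen: deviations of same-numbered libraries from their group means correlated from -0.355 to 0.0784. For differently numbered libraries the correlations ran from -0.162 to 0.269. With 3 libraries a group the deviations sum to 0, so these correlations cannot show that a pairing is absent. A fit that leaves a group with 1 library assumes that it varies like the others. Depth limits PRKAR2B most, at 12 to 62 counts per library.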
